A study of Mus musculus with 23 samples.

Results

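The comparison set leukaemic granulocyte-macrophage progenitors (L-GMPs) lacking Cebpa against progenitors that carried the same MLL-AF9 oncogene and the same Cebpa deletion but were taken from mice that had not developed leukaemia. The samples were chosen by their labels and made up 8 of the 23 arrays of the series: 3 arrays of knockout L-GMPs, 2 of GFP+ KSLs and 3 of GFP+ CMPs. KSLs are lineage-negative cells positive for Sca-1 and Kit, a fraction enriched for blood stem cells. CMPs, the common myeloid progenitors, were gated as lineage-negative, Kit-positive, Sca-1-negative, CD34-positive and negative for the Fc gamma receptors II and III.

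Donor mice carried floxed Cebpa alleles and Mx1-Cre, a recombinase gene whose promoter answers to interferon, and received poly I:C 3 times, every other day, to delete Cebpa; donors without Cre served as controls. Their KSLs or CMPs were cultured with cytokines that included SCF at 100 ng/ml and IL-3 at 10 ng/ml, infected with a retrovirus that expresses MLL-AF9 and GFP, and transplanted with congenic support marrow into lethally irradiated congenic recipients. For the primary knockout L-GMPs and the 5 progenitor arrays, the labels name KSLs as the cells given MLL-AF9. To obtain leukaemia without Cebpa, recipients of knockout cells were given vectors expressing IL-3 and GM-CSF 2 to 4 months after transplantation. The labels mark the knockout leukaemia with both cytokines and do not say whether the mice without leukaemia also received them. All 3 knockout L-GMP arrays came from 1 leukaemia, as 1 array of the primary mouse and 2 of secondary recipients of its marrow. The 5 progenitor arrays came from 3 mice, here called A, B and C: A and B each gave a KSL and a CMP array, and C gave a CMP array. Disease, cell type, cytokine vectors, round of transplantation and mouse of origin therefore changed together and cannot be told apart. Used beside them were 4 arrays of control L-GMPs (Cebpa intact, MLL-AF9, primary and secondary mice). Without MLL-AF9 there were 3 of normal control GMPs, 4 of control CMPs and 4 of knockout CMPs. All came from the same crosses.

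C/EBP alpha, the product of Cebpa, is the transcription factor that carries myeloid progenitors from the CMP to the GMP stage, and normal GMPs are nearly lost without it. MLL-AF9 is a fusion protein that holds HOXA genes and their cofactor Meis1 in an active state and causes acute myeloid leukaemia, whose leukaemia-initiating cells in mice have a GMP surface phenotype. IL-3 and GM-CSF are growth factors that drive granulocytes and macrophages through the shared receptor chain Csf2rb.

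Values are RMA signals on a log2 scale, in which a gene counted as absent lies near the floor of 3, and no level is compared between genes. A difference of 1 is a 2-fold change. The difference given for each gene is the mean of primary and secondary knockout L-GMPs minus the mean of KSLs and CMPs, with its standard error (SE). A gene was called where limma's moderated test gave an adjusted p under 0.05 both with equal and with estimated array weights, and the larger of the pair is printed. Across 19937 genes, 1932 were called, 9.69% of those tested: 1103 were higher in the L-GMPs (5.53%) and 829 lower (4.16%). Of the called genes, 533 were at least 2-fold higher and 394 at least 2-fold lower. The 3 L-GMP arrays were much alike, with a lowest pairwise correlation across genes of 0.983, while the 5 progenitor arrays correlated at 0.914 to 0.977. With only the 8 arrays in the fit, 49 of the named genes lost their call and 337 genes in all were called (1.69%), and with 1 value for each mouse and for the leukaemia 883 were, 550 higher (2.76%) and 333 lower (1.67%). The calls of 30 named genes were lost with 1 value per mouse: Fcer1a, Dntt, Chil3, Cd14, Mfsd2b, Rab27b, Itga2b, Gata2, Il7r, Cd3d, Hoxa5, Lmo2, Bcl2, Hoxa7, Cish, Socs2, Id1, Cenpe, Kif11, Bub1, Ccnb2, Aurka, Ddx21, Rrp9, Jun, Junb, Alox5, Ptger3, Kit and Zc3h12c. With the mouse and the leukaemia as a replicate block 12 of these were lost. Their adjusted p-values with the block were 0.121 for Chil3, 0.0592 for Cd14, 0.0550 for Rab27b, 0.0902 for Cd3d, 0.0998 for Lmo2, 0.0527 for Hoxa7 and 0.123 for Id1. They were 0.0515 for Bub1, 0.0798 for Ccnb2, 0.0683 for Ddx21, 0.0551 for Rrp9 and 0.0537 for Junb. Leaving out 1 array of a group of 2, such as the KSLs, leaves 1 array, which adds nothing to the estimate of spread. The part of this in the calls given below for such fits was not tested.

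Cebpa itself did not separate the sides. Its signal was 5.15 in the primary and 4.90 and 4.33 in the secondary knockout L-GMPs, against 5.22 and 4.74 in mouse A, 4.87 and 4.49 in mouse B (KSL, then CMP, here and below) and 4.79 in mouse C. The ranges overlapped and the difference was 0.02 (SE 0.18, adjusted p = 1). Control L-GMPs, in which the gene is intact, lay between 7.36 and 7.96, above every one of the 8 arrays.

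Genes of the neutrophil granule proteases were at a high level in the knockout L-GMPs, as in normal GMPs. Elane, neutrophil elastase, read 11.63, 10.97 and 11.57 in the primary and secondary L-GMPs, against 4.82 and 4.61 in mouse A, 5.76 and 4.98 in mouse B and 4.39 in mouse C. No L-GMP array came near a progenitor array, and the mean over normal GMPs was 11.71. The difference was 6.47 (SE 0.50, 88.7-fold, adjusted p = 3.82e-05). Ctsg, cathepsin G, read 11.91, 11.92 and 11.95 against 6.89 and 6.71 in A, 6.48 and 5.08 in B and 5.25 in C. It differed by 5.74 (SE 0.41, 53.4-fold, adjusted p = 2.59e-05), and its normal GMP mean was 11.90. Prtn3, proteinase 3, rose by 5.39 (SE 0.42) and Ms4a3, a membrane protein of granulocyte-monocyte progenitors, by 5.18 (SE 0.58). Mpo, myeloperoxidase, rose by 4.16 (SE 0.60, adjusted p = 0.000163) but with a spread of 5.76 to 9.42 over the progenitors, and it lost its call on the 8 arrays alone (adjusted p = 0.122). Knockout CMPs without MLL-AF9 averaged 11.46 for Mpo, near the L-GMPs, but 5.58 for Elane and 7.47 for Ctsg. Control CMPs averaged 12.49 for Mpo, 10.43 for Elane and 11.40 for Ctsg, so high levels were not particular to GMPs. Over all genes 5.53% were called higher and 4.16% lower, the background for this list and those below. Of the 10 primary granule genes 6 were higher and 1 lower, with a median difference of 3.55 beside -0.02 over all genes. The exception, Cst7, an inhibitor of cysteine proteases, fell by 2.22 and was high in both arrays of mouse A, at 10.49 and 10.45; without the second of the secondary L-GMP arrays it was no longer called.

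Hpgd, the dehydrogenase that inactivates prostaglandins, had the largest measured rise among the called genes ranked here. It read 11.17, 11.10 and 11.05 in the L-GMPs, against 4.26 and 4.16 in A, 4.54 and 4.26 in B and 4.29 in C. The difference was 6.81 (SE 0.15, 112-fold, adjusted p = 8.52e-11), with 11.1 ± 0.0604 (SD, n = 3) in the L-GMPs and 4.30 ± 0.14 (SD, n = 5) in the progenitors. Unlike Elane, it was also near the level of the progenitors in normal GMPs, at a mean of 4.51, and in knockout CMPs, at 4.72, while control L-GMPs read 11.46 to 11.69.

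**Figure D1:**
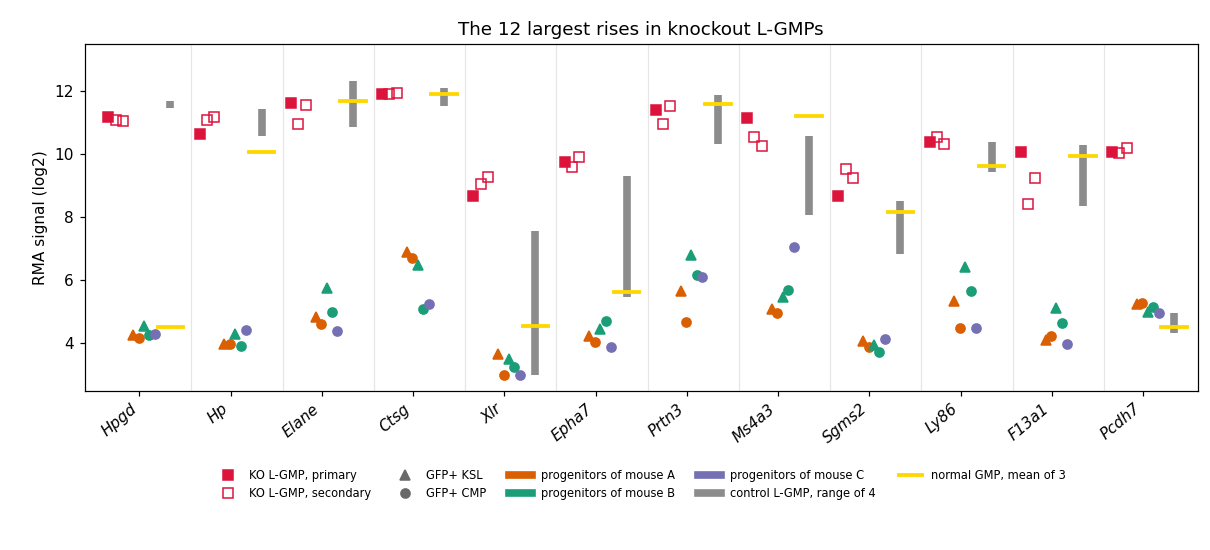
RMA signal (log2) of the 12 genes with the largest rise on each of the 8 arrays, with the range of the 4 control L-GMP arrays and the mean of the 3 normal GMP arrays. All 3 knockout L-GMP arrays lie above all 5 progenitor arrays for each gene; Hpgd is at 11.05 to 11.17 in knockout L-GMPs and at 4.51 in normal GMPs, while Elane is high in both.

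The 12 largest rises, among called genes whose 3 and 5 arrays did not overlap, were Hpgd, Hp, Elane, Ctsg, Xlr, Epha7, Prtn3, Ms4a3, Sgms2, Ly86, F13a1 and Pcdh7. All 12 were called on the 8 arrays alone, with 1 value per mouse and leukaemia, and against CMPs alone and KSLs alone. For Hpgd, Hp, Xlr, Epha7 and Sgms2 all 5 progenitor arrays were below 5, the limit used here for low values, and 2 of those for Xlr were at the floor. Their differences and folds may therefore be understated, and their order by size is not settled. Non-overlap by itself was common, at 2516 genes (12.6% of all; 6.61% with the L-GMPs higher and 6.01% with them lower). Haptoglobin, Hp, a plasma protein stored in neutrophil granules, read 10.64, 11.07 and 11.19 against 3.91 to 4.43 in the progenitors and differed by 6.76 (SE 0.32, adjusted p = 1.65e-06). The sphingomyelin synthase Sgms2 rose by 5.07 (SE 0.34), and F13a1, the A chain of coagulation factor XIII made by monocytes, rose by 5.01 (SE 0.29), or by 4.38 to 5.26 with 1 array left out. For Elane, Ctsg, Prtn3, Ms4a3 and F13a1 the range of the knockout L-GMPs overlapped that of normal GMPs. It lay wholly above normal GMPs for the other 7 genes, among them Epha7, Xlr and Pcdh7.

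Epha7, a receptor tyrosine kinase for ephrin-A ligands, read 9.75, 9.60 and 9.90 in the knockout L-GMPs, against 4.22 and 4.04 in mouse A, 4.45 and 4.72 in mouse B and 3.87 in mouse C. The groups did not overlap, and the difference was 5.48 (SE 0.45, 44.5-fold, adjusted p = 6.08e-07). Of the 21 measured Eph receptors and ephrins Epha7 alone was called, beside 9.69% of all genes. The median of the family was -0.03, and the other 20 differed by between -0.34 (Epha5) and 0.32 (Epha10). Of the 21, 14 were below 5 on all 3 knockout L-GMP arrays, where a fall could hardly be measured. Control L-GMPs were uneven, at 5.47 to 9.29, and the difference between knockout and control L-GMPs was 1.61 (SE 0.46, adjusted p = 0.0719).

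To show control regions of genes that moved in each direction, the 250 bases before the RefSeq transcription start (build GRCm38.p6) of Elane and Hpgd, 2 of the 12 largest rises, and of Ctla2a and Cpa3, 2 of the 12 largest falls, all 4 picked after their values were seen, are printed from 5′ to 3′ on the gene's strand. Capitals mark the letters GAGGAA, a core found in sites of the myeloid factor PU.1, or AGATAA, a core of GATA factor sites, on either strand. For Ctla2a the more upstream of 2 starts is shown; the window of its other start held 0 matches to AGATAA.
Elane (chr10:79886062-79886311, plus strand): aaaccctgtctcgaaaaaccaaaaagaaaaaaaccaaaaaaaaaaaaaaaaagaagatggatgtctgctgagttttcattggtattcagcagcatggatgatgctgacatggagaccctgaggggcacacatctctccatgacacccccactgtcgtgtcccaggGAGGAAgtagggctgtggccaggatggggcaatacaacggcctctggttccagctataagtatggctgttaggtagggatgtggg
Hpgd (chr8:56294302-56294551, plus strand): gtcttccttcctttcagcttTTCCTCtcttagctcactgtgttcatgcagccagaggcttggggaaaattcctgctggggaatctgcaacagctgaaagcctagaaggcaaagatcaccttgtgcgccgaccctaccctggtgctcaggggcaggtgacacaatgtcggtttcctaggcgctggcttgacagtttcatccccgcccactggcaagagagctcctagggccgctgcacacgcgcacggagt
Ctla2a (chr13:60936626-60936875, minus strand): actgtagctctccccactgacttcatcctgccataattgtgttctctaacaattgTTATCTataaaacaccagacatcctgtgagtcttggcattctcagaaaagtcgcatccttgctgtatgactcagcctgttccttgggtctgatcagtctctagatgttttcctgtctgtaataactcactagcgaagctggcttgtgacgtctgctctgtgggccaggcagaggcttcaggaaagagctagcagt
Cpa3 (chr3:20242182-20242431, minus strand): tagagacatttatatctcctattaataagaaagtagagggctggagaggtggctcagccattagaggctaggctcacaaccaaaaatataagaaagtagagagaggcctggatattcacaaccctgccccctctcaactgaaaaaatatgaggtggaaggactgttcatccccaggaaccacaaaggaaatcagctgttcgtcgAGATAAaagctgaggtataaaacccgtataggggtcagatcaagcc
Since these 4 genes were picked, the matches in their windows stand only for themselves. Among the 12 largest rises, 11 had a promoter in the RefSeq table; 6 of them held GAGGAA (Ctsg, Elane, F13a1, Hpgd, Prtn3 and Sgms2), 0 held AGATAA, and 0 held the C/EBP letters TTGCNNAA. Among the 12 largest falls 8 had one, with a gene counted where any of its starts held the letters; 4 held AGATAA (Cpa3, Ctla2a, Dntt and Fcer1a), 2 held GAGGAA and 2 held TTGCNNAA (Fcer1a and Pf4 for both). Over 27025 genes, windows of the same length held GAGGAA in 25.9%, AGATAA in 11.4% and TTGCNNAA in 10.8%. These are letter matches and not binding sites. No 2 of the motifs overlapped in the windows shown.

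Growth factor receptors and transcription factors of granulocytes and monocytes rose as well. Of 16 listed genes 11 were higher and 5 were not called, with a median difference of 1.74. On the 8 arrays alone 7 were higher (1.27% of all genes). The 11 include Fcgr3 and Fcgr2b, whose products the CMP gate left out, so the sort selected against them in CMPs. Neither was called on the 8 arrays alone. Itgam, the CD11b integrin chain, read 8.47, 9.18 and 8.90 against 5.46 and 5.13 in A, 4.99 and 4.69 in B and 5.24 in C, and rose by 3.63 (SE 0.25, adjusted p = 3.68e-06). All L-GMP arrays lay more than 3 above the highest progenitor. The G-CSF receptor Csf3r rose by 1.99, the GM-CSF receptor alpha chain Csf2ra by 2.01 and the M-CSF receptor Csf1r by 2.41. Of the transcription factors, Cebpd rose by 2.57 (SE 0.42), Irf8 by 1.53 (SE 0.29) and Spi1, which encodes PU.1, by 1.46 (SE 0.21), whereas Cebpb differed by 0.27 (SE 0.20, adjusted p = 0.601). Csf2rb, the signalling chain shared by IL-3 and GM-CSF, read 8.11, 8.60 and 8.86 in the L-GMPs and lay inside the progenitors' spread, from 5.15 in the CMPs of mouse B to 10.64 in the KSLs of mouse A.

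Monocyte genes followed the same direction. Of 17 measured 10 were higher, with a median of 1.63; the count fell to 6 without the primary L-GMP array, without the second of the secondary arrays, or without the CMP array of mouse A. Ly86, which pairs with the B cell and macrophage receptor RP105, read 10.38, 10.54 and 10.34 against 4.47 to 6.41 and rose by 5.03 (SE 0.38, adjusted p = 1e-05). Ms4a6c rose by 4.02 (SE 0.42) and Mpeg1, the macrophage pore protein perforin-2, by 3.81 (SE 0.32). Cd14, the endotoxin co-receptor, rose by 2.75 (SE 0.48), with 1 secondary array at 5.94 and the other at 7.09, and was not called without the primary array (adjusted p = 0.0700), the second of the secondary arrays (adjusted p = 0.0553) or the CMP array of mouse A (adjusted p = 0.0607).

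Later neutrophil genes rose in part. Of 19 secondary granule and mature neutrophil genes 6 were higher and 13 were not called, with a median of 0.83. Cebpe, the factor of late granule synthesis, read 8.15, 7.88 and 7.99 against 4.95 to 5.47 and rose by 2.71 (SE 0.21, adjusted p = 8.45e-05). Lcn2, lipocalin 2, rose by 3.41 (SE 0.46), while the lactoferrin gene Ltf differed by -0.07, the cathelicidin gene Camp by 0.83 and S100a9, a calprotectin subunit, by 1.66, none of the latter called. Chil3, a chitinase-like secreted protein, read 7.94, 5.37 and 9.26; its rise of 3.52 (SE 1.12, adjusted p = 0.0488) ranged from 2.54 to 4.49 with 1 array left out and was not called without the second of the secondary arrays (adjusted p = 0.198) and on leaving out 6 of the other arrays.

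**Figure D2:**
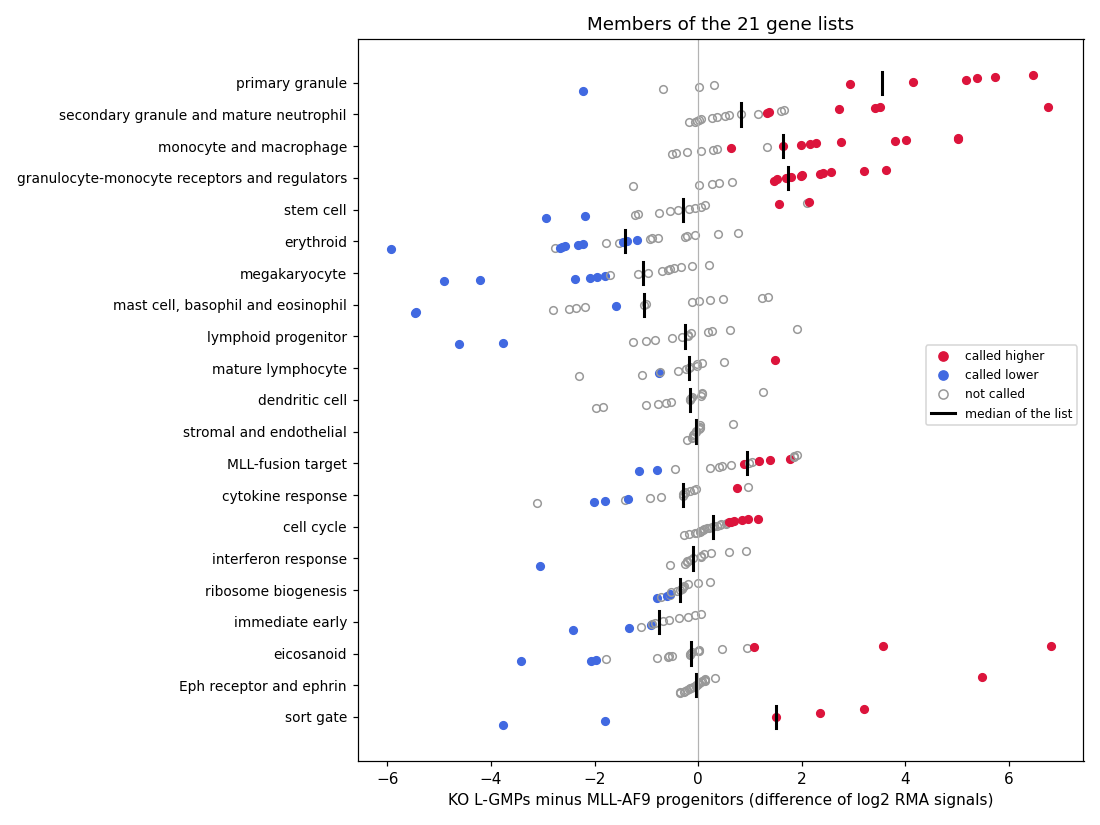
Difference between knockout L-GMPs and MLL-AF9 progenitors (log2) for each measured member of the 21 gene lists; filled points were called higher or lower, open points were not called, and black bars are list medians. The 4 granulocyte and monocyte lists lie to the right (medians 0.83 to 3.55), and the erythroid, megakaryocyte and mast cell lists to the left (medians -1.41 to -1.05).

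Of the listed erythroid genes 9 of 20 were lower in the L-GMPs, of megakaryocyte genes 6 of 16, and of mast cell, basophil and eosinophil genes 3 of 15, beside 4.16% of all genes. The median of the erythroid list was -0.83 against mouse A, -1.82 against mouse B and -2.28 against mouse C. Gata1, the master regulator of red cells and platelets, read 4.97, 5.30 and 4.97 against 7.41 and 7.56 in mouse A, 7.30 and 7.86 in mouse B and 8.55 in mouse C. The groups did not overlap, and it fell by 2.62 (SE 0.30, adjusted p = 0.000296). Normal GMPs averaged 5.22 and knockout CMPs 7.62. In bulk samples such as these, fewer cells of a type and less RNA per cell cannot be told apart.

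Of 20 erythroid genes 9 were lower and 0 higher (0 also at an unadjusted p under 0.05, against 13 lower), with a median of -1.41; on the 8 arrays alone 2 were lower (0.421% of all genes), with 1 value per mouse 6, and without the KSL array of mouse A 15. Over all 19937 genes 2070 were higher and 1958 lower at an unadjusted p under 0.05 with both weightings. These are the background for the unadjusted counts of this list and those below. Car1, carbonic anhydrase 1 of red cells, read 4.20, 4.88 and 4.59 against 8.04 and 9.33 in A, 12.08 and 11.97 in B and 10.96 in C. It fell by 5.94 (SE 0.74, adjusted p = 4.11e-05), or by -4.93 to -6.95 on leaving out single arrays, and was not called on the 8 arrays alone (adjusted p = 0.0861). The urea transporter Slc14a1 fell by 2.66 (SE 0.43) and the water channel Aqp1 by 2.57 (SE 0.52), the latter differing by -1.91 to -3.24 with 1 array left out. The sphingosine-1-phosphate exporter Mfsd2b fell by 2.31 (SE 0.50) and was not called with 1 value per mouse (adjusted p = 0.0555) or on the 8 arrays alone (adjusted p = 0.235).

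Of 16 megakaryocyte genes 6 were lower and 0 higher (8 and 0 at an unadjusted p under 0.05), with a median of -1.06. The count was 1 on the 8 arrays alone, 3 with 1 value per mouse and 4 to 9 with 1 array left out. The list median was -1.27 against mouse A, -0.16 against mouse B and -3.00 against mouse C. F2r, the thrombin receptor PAR1, read 4.86, 4.71 and 4.74 against 10.37 and 10.76 in A, 8.57 and 8.91 in B and 10.07 in C. It fell by 4.90 (SE 0.39, adjusted p = 3.78e-07) with no overlap. Pf4, platelet factor 4, fell by 4.22 (SE 0.68) from progenitor levels of 6.25 to 11.24, and Gp5, a platelet adhesion glycoprotein, by 2.37 (SE 0.36). The integrin chain Itga2b fell by 1.94 (SE 0.45) and was not called with 1 value per mouse (adjusted p = 0.0763). Rab27b, a granule transport GTPase, fell by 2.09 (SE 0.64), or differed by -1.37 to -2.82 on leaving out single arrays, and was not called without the KSL array of mouse A (adjusted p = 0.135) and on leaving out 5 of the other arrays.

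Of 15 mast cell, basophil and eosinophil genes 3 were lower and 0 higher (6 and 0 unadjusted), with a median of -1.05. The count was 0 on the 8 arrays alone, 1 with 1 value per mouse and 2 to 9 with 1 array left out, and the list median was -2.43 against mouse A, -0.04 against mouse B and 0.00 against mouse C. Cpa3, the mast cell carboxypeptidase, read 4.75, 5.75 and 4.65 against 12.60 and 12.03 in A, 9.51 and 9.48 in B and 7.99 in C. It fell by 5.47 (SE 0.75, adjusted p = 0.000105), or differed by -4.69 to -6.24 with 1 array left out, and not on the 8 arrays alone (adjusted p = 0.127). Fcer1a, the alpha chain of the IgE receptor, read 3.14, 3.21 and 3.25 against 11.95 and 10.63 in A, 5.41 and 6.43 in B and 8.70 in C; it fell by 5.44 (SE 1.17, adjusted p = 0.00493), or differed by -3.81 to -7.08 with 1 array left out, and was not called with 1 value per mouse (adjusted p = 0.0507). Gata2, a factor of stem and mast cells, fell by 1.59 (SE 0.46) and was not called without the primary L-GMP array (adjusted p = 0.186) and on leaving out 5 of the other arrays.

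The 12 largest falls were Ctla2a, Gzmb, Car1, Cpa3, Fcer1a, F2r, Dntt, Plxdc2, Marcks, Pf4, Rgs1 and Ctla2b. Only 4 of them, Ctla2a, F2r, Marcks and Ctla2b, were called on the 8 arrays alone, 10 were called with 1 value per mouse (all but Fcer1a and Dntt), and 9 against both CMPs alone and KSLs alone. Ctla2a, a small inhibitor of cathepsins, had the largest fall: 3.15, 3.20 and 3.16 in the L-GMPs, near the floor, against 10.89 and 10.67 in A, 10.37 and 10.16 in B and 10.42 in C. It fell by 7.36 (SE 0.28, adjusted p = 1.32e-10), and knockout CMPs without MLL-AF9 averaged 10.73. Its neighbour in name and family, Ctla2b, fell by 3.96 (SE 0.42); these near-identical paralogs may share probes. Gzmb, granzyme B, read 4.18, 3.87 and 3.94 against 12.35 and 12.12 in A, 7.44 and 8.32 in B and 10.73 in C, and fell by 6.10 (SE 0.97, adjusted p = 0.000725), or differed by -4.87 to -7.33 with 1 array left out. The G protein regulator Rgs1 fell by 4.11 (SE 0.48), or differed by -3.47 to -4.74 in the same way, and Marcks, a kinase C substrate at the membrane, by 4.31 (SE 0.33). For 10 of the 12, the exceptions being Car1 and Cpa3, the knockout L-GMP range overlapped that of the control L-GMPs.

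**Figure D3:**
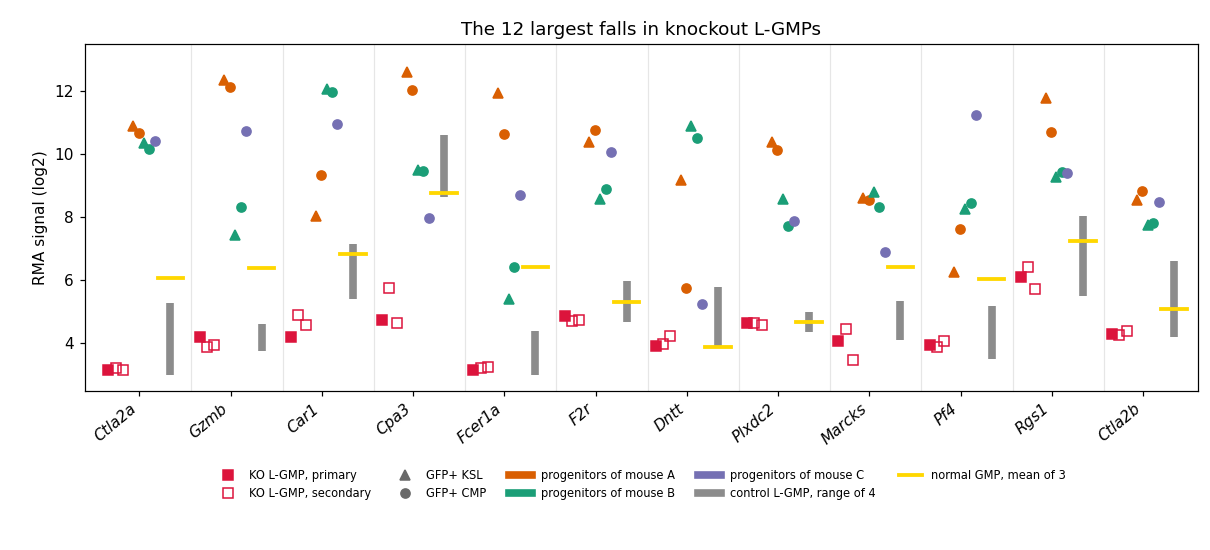
RMA signal (log2) of the 12 genes with the largest fall on each of the 8 arrays, coloured by progenitor mouse, with the control L-GMP range and the normal GMP mean. The L-GMP arrays lie below every progenitor array, while the progenitors of mice A, B and C differ widely for Gzmb, Car1, Fcer1a and Dntt; Ctla2a is even across mice at 10.16 to 10.89.

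The 3 progenitor mice differed from each other in lineage genes. Between CMPs and KSLs 3 genes were called, all lower in CMPs (0.015% of genes; at an unadjusted p under 0.05, 654 higher and 557 lower), 662 with equal weights alone, and 2104 without the KSL array of mouse B; each mouse pair shared its animal. The mean signal over the 15 mast cell, basophil and eosinophil genes was 8.10 and 7.72 in mouse A, 5.08 and 4.99 in mouse B and 5.04 in mouse C, beside 4.83 to 4.86 in the L-GMPs. Of these genes 9 were higher by at least 1 in both arrays of mouse A than in every other progenitor array, against 0.928% of all genes. Examples are Tph1, which makes serotonin, at 10.33 and 10.39 in A and 3.44 to 3.80 elsewhere, Ms4a2, the IgE receptor beta chain, at 9.88 and 9.11 against 3.88 to 4.44, and the mast cell chymase Cma1. The L-GMPs read 3.52 to 3.72 for Tph1 and 3.82 to 3.97 for Ms4a2, within or next to the range of mice B and C. Csf2rb, its mouse paralog Csf2rb2, Fcgr3, Alox5 and Il2ra were also higher by at least 1 in both arrays of mouse A.

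Mouse C stood out for platelet genes, with a megakaryocyte list mean of 8.43 beside 5.98 to 6.95 in the other progenitors and 5.27 to 5.36 in the L-GMPs. In its CMP array 8 of 16 members were higher by at least 1 than in the others (1.08% of all genes), among them Ppbp at 9.71 against 4.25 to 5.13. Mouse B was highest for lymphoid progenitor genes, with list means of 7.67 in KSLs and 6.88 in CMPs, and for Car1. In mouse A the lymphoid mean was likewise higher in KSLs (6.67) than in CMPs (5.62), and mouse C, at 5.33, gave no KSL array. At an unadjusted p under 0.05, 7 of the 14 members were lower in CMPs than in KSLs and 0 higher. Over all 19937 genes 557 were lower and 654 higher. Dntt, the terminal transferase of lymphoid precursors, read 10.91 and 10.52 in mouse B, 9.19 and 5.77 in A and 5.26 in C, against 3.91, 3.98 and 4.24 in the L-GMPs; it fell by 4.61 (SE 0.94, adjusted p = 0.00757), or differed by -3.77 to -5.09 with 1 array left out, and was not called with 1 value per mouse (adjusted p = 0.177). Il7r, the IL-7 receptor, overlapped, at 3.72, 3.97 and 3.82 against 3.71 in mouse C and 9.79 in the KSLs of mouse B; it fell by 3.76 (SE 0.98, adjusted p = 0.0170) or differed by -3.10 to -4.26 with 1 array left out, and was not called with 1 value per mouse (adjusted p = 0.515). Of the 14 lymphoid progenitor genes 2 were lower, or 6 without the KSL array of mouse A; without the KSL array of mouse B 2 were higher. Against KSLs alone Dntt differed by -6.04 and Il7r by -5.63, both called. Against CMPs alone they differed by -3.18 and -1.89, neither called. The part of these lineage genes in the other differences was not tested. Granule proteases were lower in each mouse than in the L-GMPs: the median difference of the primary granule list was 3.89 against A, 2.96 against B and 3.44 against C.

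**Figure D4:**
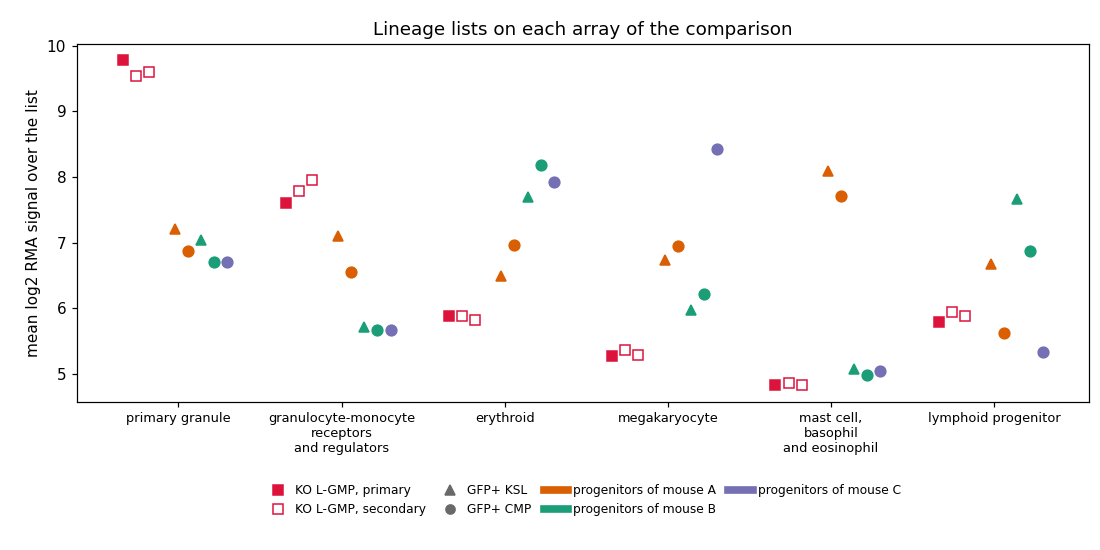
Mean log2 RMA signal over the members of 6 lineage lists on each of the 8 arrays, with progenitors coloured by mouse. The mast cell list is at 8.10 and 7.72 in mouse A and 4.99 to 5.08 in the others, the megakaryocyte list is at 8.43 in mouse C, and the primary granule list is at 9.54 to 9.78 in L-GMPs and 6.71 to 7.21 in all progenitors.

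Markers of other cell types that such preparations could hold were checked as 3 lists. Over all 19937 genes 5.53% were called higher and 4.16% lower, and unadjusted 2070 were higher and 1958 lower. Of 12 stromal and endothelial genes 0 were called (1 higher and 0 lower at an unadjusted p under 0.05), and the list mean was 5.03 to 5.16 on all 8 arrays. Of 14 dendritic cell genes 0 were called (1 higher and 3 lower unadjusted); the list mean was 4.91 to 5.02 in the L-GMPs and 5.03 to 5.88 in the progenitors. Cd74, the invariant chain, read 4.66, 4.57 and 4.47 against 5.60 to 7.68 with no overlap, a difference of -1.98 (SE 0.48, adjusted p = 0.123). Of 13 mature lymphocyte genes 1 was higher, Cd79b by 1.49, and 1 lower, Cd3d by 0.76 (1 and 4 unadjusted); the list mean was 5.16 to 5.29 against 5.19 to 5.70. The part of these cells in the other differences was not tested. Cd3d was not called without the first of the secondary arrays (adjusted p = 0.0799), the KSL array of mouse B (adjusted p = 0.0616) or its CMP array (adjusted p = 0.0503).

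Surface genes used in the sort are given as a check only. Fcgr3 read 9.51, 9.60 and 9.66 in the L-GMPs, against 8.87 and 6.72 in A, 5.63 and 5.04 in B and 4.67 in C, which differed by 3.21 (SE 0.60), between 2.40 and 4.02 with 1 array left out. Its paralog Fcgr2b differed by 2.35 (SE 0.29), Cd34 by 1.50 (SE 0.18) and Kit by -1.80 (SE 0.33), the last not called with 1 value per mouse (adjusted p = 0.101). All 3 L-GMP arrays were above the progenitors for Fcgr3 and Fcgr2b, and the KSLs of mouse A had the highest Fcgr3 of the progenitors.

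MLL-fusion target genes differed in part. Of 16 measured 4 were higher (Hoxa5, Lmo2, Jmjd1c and Hoxa7) and 2 lower (Bcl2 and Myc), beside 5.53% and 4.16% of all genes. The list median was 0.94. The count of higher members was 2 without the KSL or the CMP array of mouse A, 10 without the KSL array of mouse B and 7 without the CMP array of mouse C, and 0 on the 8 arrays alone; the count of lower members fell to 1 without either secondary L-GMP array, the KSL array of mouse B or any 1 CMP array. The median was 1.40 against mouse A, 0.53 against mouse B and -0.01 against mouse C. Hoxa5 read 7.56, 7.06 and 7.02 against 4.48 and 4.36 in A, 6.72 and 5.99 in B and 5.98 in C, and rose by 1.78 (SE 0.47, adjusted p = 0.0181), but not without the primary L-GMP array (adjusted p = 0.0631) or without the KSL or CMP array of mouse A (adjusted p = 0.0547 and 0.0537). Its cofactor Meis1, chosen after its values were seen, read 9.33, 9.83 and 9.56 against 6.04 and 4.84 in A, 8.99 and 8.76 in B and 9.79 in C, a difference of 1.85 (SE 0.83, adjusted p = 0.170). Mouse A was thus the lowest for both. Lmo2, an erythroid and leukaemia cofactor, rose by 1.40 (SE 0.44) with overlap, and not without the KSL array of mouse A (adjusted p = 0.123) or either secondary L-GMP array (adjusted p = 0.111 and 0.0929). Jmjd1c, a histone demethylase family member, rose by 1.17 (SE 0.15), and the survival gene Bcl2 fell by 1.14 (SE 0.21), not called with 1 value per mouse (adjusted p = 0.0694). Hoxa7 rose by 0.90 (SE 0.21) and was not called without the CMP array of mouse A (adjusted p = 0.0631) or with the replicate block (adjusted p = 0.0527).

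Stem cell genes moved both ways, with 2 of 14 higher and 2 lower, beside 5.53% and 4.16% of all genes. The list median was -0.29. Angpt1, the ligand of the Tek receptor, fell by 2.95 (SE 0.38, adjusted p = 0.000563) and Mllt3, which encodes AF9, by 2.17 (SE 0.27); the probe for Mllt3 was not mapped to the part kept in the fusion. Hoxb5 read 6.11, 5.95 and 6.56 against 3.63 to 4.77 and rose by 2.14 (SE 0.27, adjusted p = 0.000269), and Hoxb4 rose by 1.56 (SE 0.23). Mecom, the stem cell factor EVI1, also chosen after its values were seen, read 8.14, 8.76 and 9.60 in the L-GMPs. It was 8.46 and 7.95 in mouse B and 8.60 in mouse C but 4.29 and 3.65 in mouse A, so the difference of 2.11 (SE 0.95, adjusted p = 0.174) was not called.

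Genes of prostaglandin and leukotriene handling split, with 3 of 20 higher and 3 lower, beside 5.53% and 4.16% of all genes. Ptgr1, a reductase of prostaglandins and leukotriene B4, read 10.63, 10.83 and 10.92 against 7.73 and 6.20 in A, 7.46 and 7.32 in B and 6.73 in C, and rose by 3.58 (SE 0.33, adjusted p = 5.28e-06). Lta4h, which makes leukotriene B4, rose by 1.08 (SE 0.26). Ptger4, a receptor for prostaglandin E2, fell by 1.97 (SE 0.23, adjusted p = 8.59e-05). The receptor Ptger3 fell by 2.06 (SE 0.56), or differed by -1.25 to -2.87 with 1 array left out, and was not called without the second of the secondary arrays (adjusted p = 0.0670). Alox5, the first enzyme of leukotriene synthesis, was at 11.43 and 11.17 in A, 6.11 and 7.32 in B and 8.80 in C against 5.43 to 5.63; it fell by 3.42 (SE 0.96), or differed by -2.09 to -4.75 with 1 array left out, and not without the first or the second of the secondary arrays (adjusted p = 0.0628 and 0.0605) or the KSL array of mouse A (adjusted p = 0.0624). The count of lower members was 5 without the primary L-GMP array, the KSL array of mouse B or the CMP array of mouse B, and 1 without the second of the secondary arrays.

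Of 16 cytokine response genes 3 were lower and 1 higher, beside 4.16% and 5.53% of all genes. Unadjusted, 6 were lower and 2 higher, beside 1958 and 2070 of all 19937 genes. Ccnd2, the cyclin D2 gene, read 7.95, 8.38 and 8.66 against 9.58 to 10.39 and fell by 1.81 (SE 0.16, adjusted p = 5.44e-06). The STAT5 feedback genes Cish and Socs2 fell by 2.01 (SE 0.55) and 1.35 (SE 0.34), Cish not without the KSL array of mouse A (adjusted p = 0.0718) or the first of the secondary arrays (adjusted p = 0.0588); Socs2 was not called with 1 value per mouse (adjusted p = 0.0982), and another of its probe sets gave a larger fall. Id1, an inhibitor of basic helix-loop-helix factors, rose by 0.74 (SE 0.20) and was not called without the CMP array of mouse B (adjusted p = 0.113), that of mouse A (adjusted p = 0.109), the KSL array of mouse B (adjusted p = 0.0636) or the second of the secondary arrays (adjusted p = 0.104). With the CMP array of mouse B left out 5 genes of this list were lower; the single higher call was lost without the second secondary array, the KSL array of mouse B, or the CMP array of A or B, and became 2 without the primary or the first secondary array.

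Of 24 cell cycle genes 6 were higher, with a median of 0.29, and 11 were without the KSL array of mouse B. Over all genes 5.53% were called higher. Without the primary L-GMP array 0 of the list were called. The list mean was 8.64 in the primary, 8.07 and 7.79 in the secondary L-GMPs and 7.46 to 8.29 in the progenitors. Cenpe, a kinetochore motor, read 8.15 in the primary and 7.20 and 7.09 in the secondary L-GMPs against 6.29 to 6.60, and rose by 1.15 (SE 0.14, adjusted p = 0.00368), with an adjusted p = 0.107 without the primary array. The spindle motor Kif11 rose by 0.96 (SE 0.20), the checkpoint kinase Bub1 by 0.85 (SE 0.15), Ccnb2, a mitotic cyclin, by 0.70 (SE 0.18) and the kinase Aurka by 0.64 (SE 0.11); without the primary array their adjusted p-values were 0.115, 0.413, 0.300 and 0.467, and Ccnb2 was also not called on leaving out either secondary array or the CMP array of mouse A or B. Among 7 genes called between secondary and primary knockout L-GMPs (0.0351% of genes; 4 higher in the secondary mice, 0.0201%), Cxcl10, an interferon-induced chemokine, was at 8.64 in the primary and 4.85 and 4.84 in the secondary mice. Plekhh2 went the other way, from 4.49 to 6.19 and 6.69, and Lrrc4c from 3.32 to 5.43 and 5.14. With 1 primary array, this contrast takes its spread from the other groups; 19 genes were called without the first of the secondary arrays and 74 with array weights alone.

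Immediate early genes, transcription factors that stress and handling induce, were lower for 3 of 12, and 0 higher (also 0 unadjusted). Over all genes 4.16% were called lower and 5.53% higher, for the ribosome list below too. Egr1 read 8.15, 7.47 and 7.11 against 9.63 and 10.24 in A, 10.01 and 10.39 in B and 10.71 in C; it fell by 2.41 (SE 0.23, adjusted p = 0.000287). Jun fell by 1.33 (SE 0.24) and Junb by 0.90 (SE 0.20), both not called without the CMP array of mouse A (adjusted p = 0.0590 and 0.0985; for Junb also 0.0533 without that of mouse C), where 1 of the list was lower; without the KSL array of mouse B 5 were. Of 13 interferon response genes 1 was called, beside 9.69% of all genes. This was Ifitm3, a membrane restriction factor, which fell by 3.06 (SE 0.46, adjusted p = 0.000764). Of 15 ribosome biogenesis genes 3 were lower and 0 higher (7 and 0 unadjusted), Polr1b by 0.80 (SE 0.16), Ddx21 by 0.59 (SE 0.14) and Rrp9 by 0.54 (SE 0.12); 8 were lower without the KSL array of mouse A and 1 without its CMP array. Ddx21 was not called without the CMP array of mouse A (adjusted p = 0.0742) or that of mouse B (adjusted p = 0.0580) or the second of the secondary arrays (adjusted p = 0.0597), and Rrp9 not without the primary L-GMP array (adjusted p = 0.0705) or the CMP array of mouse A (adjusted p = 0.0540) or C (adjusted p = 0.0631).

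The control L-GMPs, which kept Cebpa, were compared with the same 5 progenitor arrays, so the changes of both leukaemias share that side. The knockout was therefore tested against the control L-GMPs directly. The labels give the cytokine vectors for the knockout leukaemia and not for the control L-GMPs. Cebpa status, cytokine vectors and leukaemia of origin changed together in this test and cannot be told apart. Of 19937 genes 473 differed (2.37%), 318 higher in the knockout (1.6%) and 155 lower (0.777%). Against the progenitors the control L-GMPs had a median difference of 2.11 in the primary granule list, 2.08 in the monocyte list and 1.97 in the receptor list, where 5 of 10, 8 of 17 and 12 of 16 members were called higher against the progenitors (2.75% of all genes; 6.27% in either direction). The receptor list holds the gated genes Fcgr3 and Fcgr2b here too. Between the leukaemias the list medians were 0.24, 0.02 and -0.20, and -0.13 in the secondary granule list. In these 4 lists 3 genes were called in that test: Itgam was higher in the knockout by 1.42 (SE 0.26, adjusted p = 0.0190), Padi4, a peptidylarginine deiminase of neutrophils, was higher by 1.98 (SE 0.21) and Clec7a, the beta-glucan receptor dectin-1, differed by -1.15 (SE 0.22), the latter 2 named after their values were seen. Elane differed between them by 0.01 (SE 0.52, adjusted p = 1), Ctsg by 0.20 (SE 0.43, adjusted p = 0.924) and Hpgd by -0.51 (SE 0.15, adjusted p = 0.248). Of the 12 largest rises 2 were called in this test, Pcdh7 and Xlr, and of the 12 largest falls 1 was, Cpa3. Without the first of the primary control arrays 2434 genes were called, without the primary knockout array 752, and with 1 value for each mouse and leukaemia 145.

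Pcdh7, a protocadherin of cell adhesion, read 10.07, 10.04 and 10.20 in the knockout L-GMPs, 4.95 to 5.26 in the progenitors and 4.34 to 4.95 in the control L-GMPs. It was apart from both, by 4.97 (SE 0.19, adjusted p = 5.44e-08) and 5.59 (SE 0.19, adjusted p = 6.59e-09). Klhl4, a kelch-domain protein, read 8.35, 7.54 and 7.66 against 4.43 to 4.80 and, in control L-GMPs, 3.57 to 4.10, with differences of 3.38 (SE 0.13) and 4.16 (SE 0.13). Xlr, an X-linked lymphocyte-regulated gene, read 8.69, 9.07 and 9.27 against 3.00 to 3.65 and 3.00 to 7.56; it rose by 5.59 (SE 0.56) and 4.20 (SE 0.57). The desmosomal protein gene Dsp rose by 4.19 (SE 0.43) and 2.98 (SE 0.44), the RNase gene Zc3h12c by 3.12 (SE 0.59) and 4.14 (SE 0.61), and the mitochondrial kinase gene Ak4 by 2.19 (SE 0.48) and 3.81 (SE 0.50). The Ak4 rise over progenitors ranged from 1.54 to 2.83 with 1 array left out, and its mouse B KSLs were at 7.06, next to the primary L-GMPs at 7.12. Ak4 averaged 7.77 in normal GMPs, inside the knockout L-GMP range of 7.12 to 8.61, while control L-GMPs lay at 3.62 to 4.13. Its other probe set gave a rise over progenitors of 1.29. Zc3h12c was not called over progenitors with 1 value per mouse (adjusted p = 0.0544).

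Cpa3 was lower in both tests, with 8.65 to 10.61 in the control L-GMPs. The knockout differed from the progenitors by -5.47 and from the control L-GMPs by -4.74 (SE 0.77, adjusted p = 0.00294). Fabp5, a fatty acid carrier, read 6.0, 5.34 and 5.20 against 8.15 to 9.26 in the progenitors and 6.63 to 7.59 in control L-GMPs; it differed by -3.13 (SE 0.20) and -1.30 (SE 0.21). The ciliary gene Iftap differed by -2.62 (SE 0.43) and -3.30 (SE 0.44) in the same order. Its other probe set differed from the progenitors by -1.37. Nrgn, the calmodulin-binding neurogranin, differed by -2.14 (SE 0.27) and -1.07 (SE 0.28), Ralgps2 by -1.35 (SE 0.23) and -1.01 (SE 0.24), and Ndufa5, a subunit of respiratory complex I, by -0.89 (SE 0.15) and -0.92 (SE 0.16). With 1 value for each mouse and leukaemia the difference between leukaemias was not called for Nrgn, Ralgps2 and Ndufa5, nor for Xlr, Dsp and Zc3h12c above. Among list members already described, Hoxb5 was 2.30 higher and Hoxb4 1.40 higher in knockout than in control L-GMPs, and both were level with the progenitors in control L-GMPs (differences of -0.16 and 0.16). Mecom was 4.29 higher than in control L-GMPs (SE 0.98, adjusted p = 0.0254), although mice B and C reached the same level without leukaemia.

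**Figure D5:**
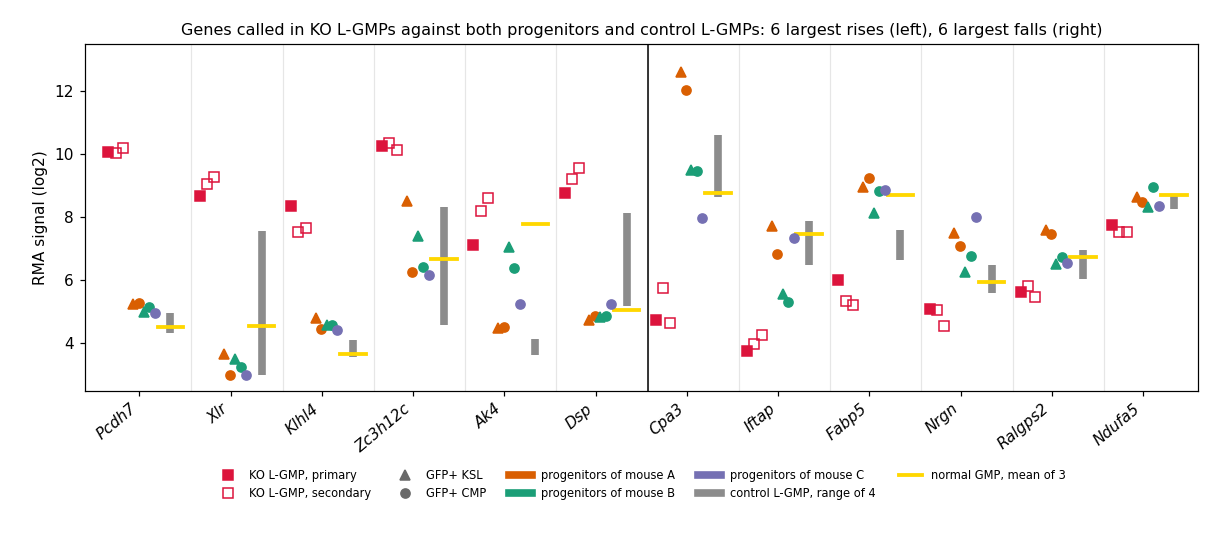
RMA signal (log2) of the 6 largest rises and 6 largest falls called both against progenitors and against control L-GMPs, on each of the 8 arrays, with the control L-GMP range and the normal GMP mean. Pcdh7 and Klhl4 are high only on the 3 knockout L-GMP arrays among the groups drawn; Cpa3 is at 4.65 to 5.75 in them and at 7.99 or more in the progenitors and control L-GMPs.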

How the data were processed

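Gene expression was measured on 23 Affymetrix arrays of mouse blood progenitors and leukaemia cells. Per the labels' protocols, RNA was taken with Trizol and amplified with a NuGen Ovation Pico kit; amplification from few cells can add noise to low signals. The authors deposited log2 signals, and the submitters' processing notes name RMA; the summarisation tool and its version are not given in the sources used here. The values have a floor of 3 and reach 13.64, and 2952 to 3379 probe sets per array sit at the floor.

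Of 34760 probe sets, 21640 carry 1 gene symbol in GEO's platform annotation, 1321 several and 11799 none listed. Each of 19937 genes was represented by its brightest probe set on average across the arrays (954 genes have several). limma 3.58.1 in R 4.3.3 fitted 9 group means over the 23 arrays (14 residual degrees of freedom, variance trend), once with equal and once with estimated array weights. A gene was called at a Benjamini-Hochberg adjusted p under 0.05 in both. Data of the 19937 genes were simulated with the noise of each group as observed. The primary knockout group, with 1 array, took the noise of the secondary group. In these data the comparison with progenitors recovered 68% of 2-fold and 95% of 4-fold changes, with 6.9% of calls false. With equal weights alone 36% were false. The comparison of both leukaemias recovered 81% and 97%, with 4.8% of calls false. The changes put in were 2-fold or 4-fold, in fewer genes than were called in either real comparison. The percentages hold for that setting alone. The simulated arrays were independent, whereas several real arrays share a mouse or a leukaemia. The share of false calls under such sharing was not measured. Progenitor arrays were noisier (median absolute residual 0.155 in KSLs and 0.161 in CMPs) than secondary knockout L-GMPs (0.0776), so progenitor levels are less certain.

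KSL and CMP arrays of mice A and B pair by animal, as the labels state; the deviation between mice correlated at 0.409 across KSLs and CMPs. With the mouse and leukaemia as a random block 1290 genes were called. P-values measure the spread between arrays, and the 3 knockout arrays are 1 leukaemia.

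The members were given by the labels; the 21 gene lists (348 genes, 30 of the 352 entries not measured) and the tests were chosen with earlier results of these data known. The genes named are Cebpa, 4 marker genes, the 12 largest rises and 12 largest falls among called genes without overlap between arrays (predicted and clone-named genes, small RNAs, olfactory, vomeronasal, antigen receptor and Y-linked genes and Xist left out), up to 5 called members of each list (up to 2 as values where none was called), and the 6 largest rises and falls called in both leukaemia tests. Other genes named were chosen after their values were seen. Comparisons of CMPs with KSLs and of secondary with primary L-GMPs, and the values for single mice, were added after seeing the data. Scan dates were not used here. Promoters come from RefSeq.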

Additional observations from a re-analysis of the deposited data

Results flagged for a closer look

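Among 26 genes examined for an array far from the rest of the 5 progenitor arrays, 1 stood apart: the CMP array of mouse C, at 6.9 for Marcks, while the other 4 lay between 8.33 and 8.81. Chance gives such a flag in about 1 of 20 groups.

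A further 21 of the named genes differed between the knockout and the control leukaemia in the direct test (limma, adjusted p under 0.05 with both weightings). The differences, knockout minus control on the log2 scale, were largest for Pcdh7 (5.59), Xlr (4.20), Klhl4 (4.16), Zc3h12c (4.14), Ak4 (3.81) and Dsp (2.98) on the higher side. Smaller rises were found for Hoxb5 (2.30), Ptgr1 (1.90), Itgam (1.42), Hoxb4 (1.40), Jmjd1c (1.27), Ccnd2 (1.07) and Kif11 (0.85). Ccnd2 was higher than in control L-GMPs and lower than in the progenitors. The lower genes were Cpa3 (-4.74), Iftap (-3.30), Cebpa (-2.71), Fabp5 (-1.30), Nrgn (-1.07), Ralgps2 (-1.01), Id1 (-0.99) and Ndufa5 (-0.92). On leaving out 1 array the call was lost for Kif11 (6 arrays, the largest adjusted p = 0.272, without the primary knockout array), Nrgn (5 arrays, at most 0.148), Ralgps2 (3 arrays, at most 0.0979) and Id1 (2 arrays, at most 0.0623). With 1 value for each mouse and leukaemia 10 of the 21 lost it: Xlr (adjusted p = 0.0825), Itgam (0.0963), Zc3h12c (0.0600), Dsp (0.0501), Ptgr1 (0.0908), Kif11 (0.306), Id1 (0.221), Nrgn (0.224), Ralgps2 (0.176) and Ndufa5 (0.0511).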

How the results depend on the processing

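The count of 1932 genes changed against the progenitors moved most with the samples used: 719 against KSLs only, 799 with primary L-GMPs only, 337 with the arrays of the compared groups only, 883 with 1 value per mouse and leukaemia, 3163 without mouse B, and 1457 to 3105 with 1 array left out. It was 2632 with equal weights, 2086 with array weights and 1290 with the replicate block (mouse and leukaemia). The count of 473 between leukaemias was 11 with the arrays of the compared groups only, 295 with the replicate block, 145 with 1 value per mouse and leukaemia, and 344 to 2434 with 1 array left out. For the 3 genes between CMPs and KSLs the count was 662 with equal weights and 1 with the compared groups only. It was 5 with the block and 4 to 2104 with 1 array left out. For the 7 genes between secondary and primary L-GMPs it was 74 with array weights and 0 with the compared groups only. The cause of this 0 was not tested. In that fit the primary group has 1 array, so the spread comes from the other groups. For these 7 genes the count was 25 with the block and 9 to 19 with 1 array left out. No named gene changed direction in a called value. Of the 93 named genes, all 93 kept their side of the threshold under array weights, median centring, the low value filter and the mean of probe sets, while 49 lost their call with the compared groups only, 33 against KSLs only, 30 with 1 value per mouse and leukaemia and 12 with the block. Fewer arrays were used in all of these but the block. Signals near the floor limit falls such as that of Ctla2a and rises such as that of Hpgd, which may be understated there.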
